A study of Caenorhabditis elegans with 36 samples.

Results

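The genes described here are the potassium channel genes of the roundworm Caenorhabditis elegans whose array annotation carries a twk, kvs, kqt, irk or slo symbol. The rule took every annotated symbol that begins with one of these names and a number, and it used no measured value. It found 51 genes among 16378 named genes, of which 41 were twk, 5 kvs, 2 kqt and 3 irk genes. No annotated symbol began with slo, so slo-1 and slo-2 were not analysed here, and neither was kqt-1. Of the 51 genes, 47 had 1 probe and 4 had 2 probes, and all 51 symbols matched a current symbol in RefSeq's gene table.

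Potassium channels let potassium ions cross the cell membrane, which sets the resting potential and ends electrical excitation in neurons and muscle. The twk genes encode channels with a pair of pore domains in each subunit, which carry leak currents, and this family is unusually large in C. elegans. The kvs genes encode voltage-gated channels, the kqt genes relatives of the vertebrate KCNQ channels, the irk genes inward rectifiers, and slo genes encode channels opened by calcium or by other ions. AIN-2 belongs to the GW182 proteins, which bind Argonaute in the silencing complex, the particle in which a microRNA holds its target messenger RNA. Messenger RNAs recovered with AIN-2 therefore include those held by microRNAs.

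All animals carried the same single-copy AIN-2::GFP transgene and were grown at the same temperature. The compared groups were an immunoprecipitate (IP) made with a monoclonal anti-GFP antibody and the total RNA of the same lysate (input), in Egg samples and in larvae that had fed for 4 hours (L1), 21 hours (L2), 30 hours (L3) or 42 hours (L4). There were 18 lysates in 36 samples, 4 each at Egg, L1 and L3 and 3 each in L2 and L4, and the labels state that every replicate was cultured and harvested on its own. No IP from animals without the tag was analysed here, so a difference between IP and input compares each gene with the other genes of the same pair, and recovery that does not depend on AIN-2 cannot be told apart.

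Values are log2 intensities after quantile normalization of the deposited linear intensities, and a difference of 1 is a doubling. A value was taken as above background when it exceeded 3 times the noise of its sample, the root mean square of that sample's values below 0. By this measure 31% to 70.4% of spots were above background in the IP samples and 51.3% to 71.4% in the input samples. The IPs of L3 replicate 1 (31%) and L4 replicate 3 (33.5%) had the fewest. Sperm genes, which mark the L4 stage here, were high in L4 input, where the median level of 10 genes was 2.15 to 5.27, but that median was also 0.61 in the input of L3 replicate 2, against -3.90 to -3.43 in the other L3 lysates. Of 6 tested markers of early embryos, 2 fell and 1 rose from Egg to L1 in the input, with a median change of -1.79. Across all features, 11.5% fell and 11.2% rose. The 3 lysates named here stand apart, and values without them are also given for several of the genes below. The number of arrays limits the precision.

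To be tested, a gene needed values above 0 in both samples of at least 2 lysates of each stage. This left 35 of the 51 genes (26 twk, 4 kvs, 2 kqt and 3 irk genes) among 15732 genes and unnamed probes. The other 16 were kvs-2, twk-2, twk-3, twk-6, twk-10, twk-18, twk-23, twk-25, twk-29, twk-30, twk-34, twk-35, twk-37, twk-39, twk-44 and twk-47. Of these, 13 were above background in fewer than 10 of the 36 samples. The other 3 were twk-3, with 10 input and 2 IP samples above background, kvs-2, with 11 and 5, and twk-18, with all 18 input and 13 of 18 IP samples. The gene twk-18 encodes a channel of body wall muscle in which activating mutations paralyse the animal, and it lacked an IP value above 0 in L4 replicates 1 and 3. Its difference between IP and input ran from -1.81 in L3 replicate 1 to 1.44 in L1 replicate 11, with L1 the stage at which all 4 lysates were above 0, and it was not tested.

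The first comparison asks which of these messengers were recovered with AIN-2 beyond their level in the lysate. Averaged over the 5 stages, 9 of the 35 tested genes were higher in the IP and 1 was lower, while 25 were not called (limma on the difference within each lysate, Benjamini-Hochberg adjusted p under 0.05 over all 15732 features). Across all features, 19.2% were called higher and 25.2% lower, against 25.7% and 2.86% of the potassium channel genes. The median difference of the 35 genes was 0.31, beside -0.09 over all features, and it was 0.17 without L2 replicate 2 and 0.19 without L4 replicate 3. The genes called higher were twk-28, twk-12, kqt-3, twk-13, twk-36, twk-42, twk-8, irk-2 and kvs-5, and the gene called lower was twk-7. With a more than 2-fold difference asked for as well, 5 were higher and twk-7 was lower, and the share of all features past that mark was 10.3% higher and 15.6% lower.

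**Figure D1:**
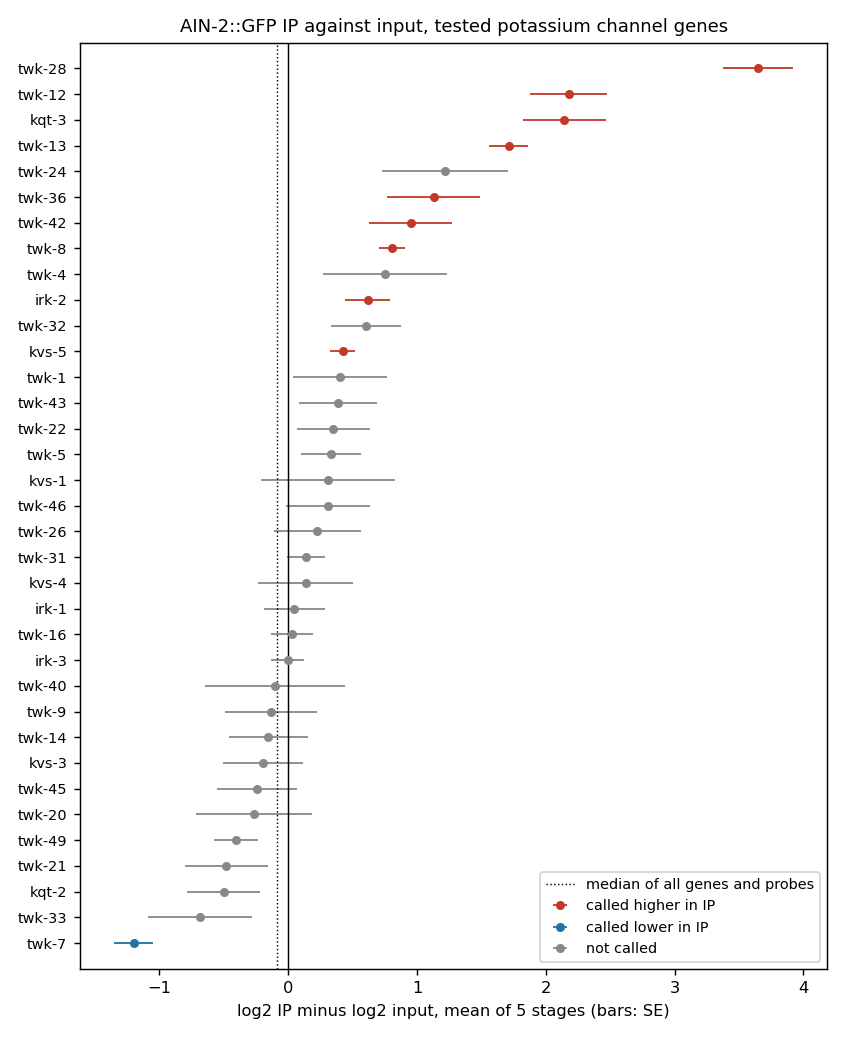
Difference between IP and input (log2, mean of the 5 stages, points) with its standard error (bars) for the 35 tested genes, coloured by call; the dotted line is the median of all genes and probes, -0.09. The gene twk-28 lies farthest to the right at 3.65 and twk-7 farthest to the left at -1.20, and the bars of many uncalled genes reach 0.

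The gene twk-28 encodes a channel of the paired-pore family and had the largest difference of the 35. Below, lysates are given in the order of their replicate numbers, which were 1, 2, 4 and 5 at Egg, 2, 5, 10 and 11 in L1, 1, 2 and 3 in L2, 1, 2, 3 and 5 in L3, and 1, 3 and 10 in L4. For twk-28, IP minus input was 4.24, 3.82, 2.09 and 4.41 at Egg, 5.89, 3.92, 4.04 and 4.48 in L1, 2.71, 3.47 and 3.33 in L2, -0.72, 3.40, 3.50 and 3.20 in L3, and 3.27, 4.22 and 4.11 in L4. The IP was thus above the input in 17 of 18 lysates, and the exception was L3 replicate 1, where the IP was not above background. Its IP level averaged -0.55 ± 0.51 (SD, n = 4) at Egg, 0.32 ± 0.28 in L1 (SD, n = 4), -1.27 ± 0.95 in L2 (SD, n = 3) and -0.04 ± 0.24 in L4 (SD, n = 3), and at these stages the IP and input samples did not overlap. The input stayed between -5.68 and -2.74 with a median of -4.03, and was not above background in 2 of 18 samples, L1 replicate 2 and L2 replicate 3. Averaged over the stages and adjusted for dye, the difference was 3.65 ± 0.27 (SE, 18 lysates, limma adjusted p = 9.27e-10). Without L3 replicate 1 and L4 replicate 3 it was 3.76 ± 0.19 (SE, limma adjusted p = 2.66e-11). Leaving out this pair of lysates, here and below, was chosen after the data had been seen.

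The gene twk-12 belongs to the same family. Its IP minus input was 0.78, 2.04, 2.32 and 3.20 at Egg, 4.17, 3.24, 3.24 and 3.41 in L1, 2.26, 2.29 and 2.28 in L2, -0.04, 1.45, 1.23 and 3.16 in L3, and 2.16, -2.03 and 2.94 in L4. The 3 L2 lysates were nearly equal, while L3 and L4 were spread, and both lysates below 0 were L3 replicate 1 and L4 replicate 3. In these the IP of twk-12 was not above background. The IP and input samples did not overlap at Egg, L1 or L2 and overlapped in L3 and L4. Over the stages the difference was 2.18 ± 0.30 (SE, 18 lysates, limma adjusted p = 5.04e-06), and 2.49 ± 0.20 (SE) without those 2 lysates.

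The gene kqt-3, a KCNQ relative, showed a like set of differences. Its IP minus input was 0.79, 5.33, 0.86 and 2.22 at Egg, 3.43, 3.33, 3.02 and 3.98 in L1, 1.56, 2.60 and 1.43 in L2, -0.96, 1.37, 1.47 and 1.84 in L3, and 1.89, -2.08 and 2.53 in L4. The L1 lysates were the closest together, and the same 2 lysates, L3 replicate 1 and L4 replicate 3, were below 0 with an IP that was not above background. The highest value, in Egg replicate 2, rests on an input of -7.83 that was not above background. The difference over the stages was 2.14 ± 0.32 (SE, 18 lysates, limma adjusted p = 1.38e-05), and it was 2.42 ± 0.26 (SE) without the 2 lysates. The second tested KCNQ relative, kqt-2, was above background in all 18 input samples and had a difference of -0.50 ± 0.28 (SE, 18 lysates), which was not called (limma adjusted p = 0.165).

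The gene twk-13, again of the paired-pore family, was the steadiest of the genes with a difference beyond 1. Its IP minus input was 2.35, 1.00, 1.03 and 2.49 at Egg, 2.51, 2.79, 2.29 and 2.54 in L1, 1.40, 1.88 and 1.15 in L2, 0.77, 0.94, 2.29 and 1.74 in L3, and 1.86, 1.22 and 1.61 in L4. All 18 lysates were above 0, all 36 samples were above background, and the IP and input samples did not overlap at any of the 5 stages. The difference was 1.71 ± 0.15 (SE, 18 lysates, limma adjusted p = 8.97e-09).

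The gene twk-36 was measured by 2 probes. The mean of the available probes gave IP minus input of 1.78, 0.88, 3.54 and 1.31 at Egg, 0.72, -1.23, 1.75 and 1.70 in L1, 1.85, -1.47 and 1.68 in L2, 3.85, 2.42, -0.78 and 0.75 in L3, and 2.71, 0.29 and 0.62 in L4. One probe had values in both samples of 12 lysates and the other in all 18, so that the IP and input of a lysate could rest on different probes. The probe with 18 lysates had a difference of 1.06 ± 0.56 (SD, n = 18) and the other 1.14 ± 2.10 (SD, n = 12). The difference over the stages was 1.13 ± 0.36 (SE, 18 lysates, limma adjusted p = 0.0148) from both probes and 1.07 ± 0.15 (SE, limma adjusted p = 6.95e-06) from the brighter probe alone. With both probes the call was lost without L3 replicate 2, where the difference was 0.96 (limma adjusted p = 0.0568).

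**Figure D2:**
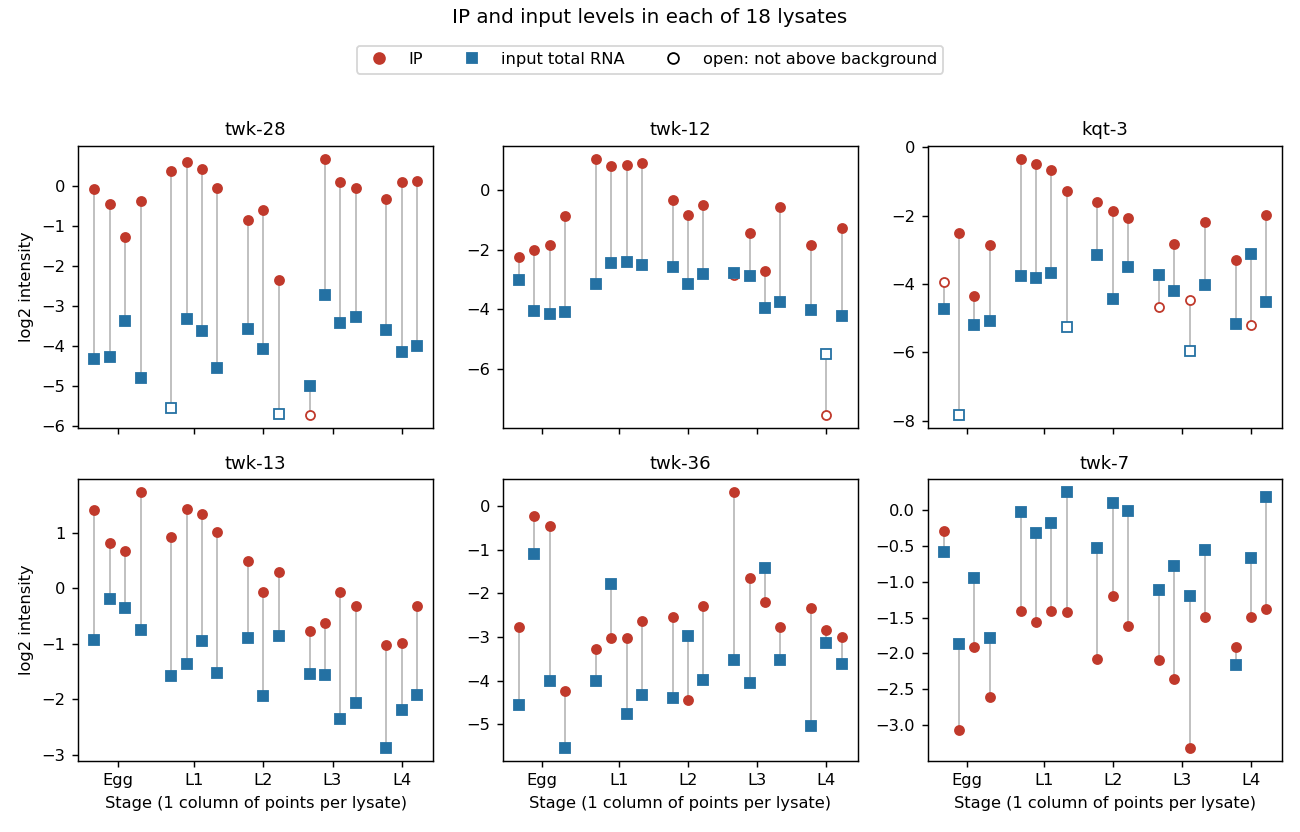
Log2 intensity of 6 genes in the IP (red circles) and input (blue squares) of each of the 18 lysates, joined by a line per lysate and ordered by stage and replicate number; open symbols are not above background. In the twk-28, twk-12, kqt-3 and twk-13 panels the red points lie above the blue ones in 16 or more of the lysates, and in the twk-7 panel they lie below in 16.

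The gene twk-7, loss of which is known to make worms move more, was the only one of the 35 called lower. Its IP minus input was 0.30, -1.20, -0.97 and -0.83 at Egg, -1.38, -1.23, -1.22 and -1.67 in L1, -1.54, -1.30 and -1.60 in L2, -0.98, -1.57, -2.11 and -0.94 in L3, and 0.25, -0.83 and -1.57 in L4. The exceptions were Egg replicate 1 and L4 replicate 1, and the IP and input samples did not overlap in L1, L2 and L3. All 36 samples were above background. The difference was -1.20 ± 0.15 (SE, 18 lysates, limma adjusted p = 1.66e-06).

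Smaller differences were called for 4 more genes. For twk-8, IP minus input ran from 0.34 to 1.75 with a median of 0.79 and was above 0 in all 18 lysates, with a fitted difference of 0.81 ± 0.10 (SE, limma adjusted p = 1.39e-06). For kvs-5, a voltage-gated channel gene, it ran from -0.18 to 1.13 with a median of 0.42, was above 0 in 17 of 18 lysates, and was fitted at 0.43 ± 0.10 (SE, limma adjusted p = 0.00123). The inward rectifier gene irk-2 was above 0 in 15 of 17 lysates with a median of 0.92 and a fitted difference of 0.62 ± 0.18 (SE, limma adjusted p = 0.00728). For twk-42 the values ran from -2.85 in L3 replicate 1 to 3.58 in Egg replicate 1, 15 of 17 lysates were above 0, and the fitted difference was 0.95 ± 0.32 (SE, limma adjusted p = 0.0218). The twk-42 call is the weakest of these, and it was lost without L1 replicate 2 (limma adjusted p = 0.0506), L3 replicate 2 (0.0513) or L4 replicate 10 (0.0612). It was not spread over the stages: IP minus input of twk-42 averaged 2.76 at Egg, 1.34 in L1, 0.54 in L2, 0.01 in L3 and -0.10 in L4. At Egg its input was above background in 1 sample only. When the columns were centred on their medians in place of quantile normalization, twk-8 (0.56), kvs-5 (0.25) and irk-2 (0.45) kept their sign and were not called.

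The 25 genes that were not called had fitted differences between -0.69 and 1.22, of which 14 were above 0 and 11 below. The largest was that of twk-24, which had values in both samples of 15 lysates, was above 0 in 13 of these and was fitted at 1.22 ± 0.49 (SE, limma adjusted p = 0.0532). It was called without L3 replicate 2, at 1.87 (limma adjusted p = 0.00299). In all it was called in 9 of 33 alternative analyses, among them values as deposited (1.58) and columns centred on their medians (1.49). The gene twk-32 was called higher in 5 of these 33 and twk-22 in 2. The lowest fitted difference was that of twk-33, at -0.69 ± 0.40 (SE, limma adjusted p = 0.185), with 8 of 15 lysates above 0. The gene twk-49 was below 0 in 15 of 16 lysates at -0.41 ± 0.17 (SE, limma adjusted p = 0.0621). It was called lower without L3 replicate 1 (-0.45, limma adjusted p = 0.0205) or without L4 replicate 3 (-0.41, limma adjusted p = 0.0490), and in 9 of 32 alternative analyses in all. The gene irk-1, which acts in the egg-laying motor neurons, differed by 0.05 ± 0.24 (SE, 18 lysates, limma adjusted p = 0.896), and 11 of 18 lysates were above 0. The gene kvs-1, a voltage-gated channel gene of sensory neurons, was above background in 5 IP and 6 input samples, and its difference of 0.31 ± 0.52 (SE, 15 lysates, limma adjusted p = 0.667) came mostly from values near background.

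Of the 8 tested genes above background in all 36 samples, which were irk-3, kvs-5, twk-7, twk-8, twk-13, twk-16, twk-31 and twk-36, 5 were called in either direction, beside 71% of all features above background in all 36 samples. Of the other 27 tested genes 5 were called, beside 35% of the other features. The values of twk-16 (0.03 ± 0.16, SE) and twk-31 (0.14 ± 0.15, SE) lie close to 0 although both genes were above background in every sample. The neighbouring genes twk-21 (-0.48 ± 0.32, SE) and twk-22 (0.35 ± 0.28, SE), which are adjacent among protein-coding genes, were both not called.

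The second comparison asks in which stages the difference was present. At Egg, 6 of the 35 genes were higher and none lower, namely kqt-3, twk-8, twk-12, twk-13, twk-28 and twk-42, while 10.4% of all features were called higher and 11.8% lower. At L1, 5 were higher (kqt-3, twk-8, twk-12, twk-13 and twk-28) and twk-7 was lower, against 13.1% and 9.83% of all features. At L2, twk-12, twk-13 and twk-28 were higher and twk-7 lower, against 6.26% and 9.99%. At L3, twk-8, twk-13 and twk-28 were higher and twk-7 lower, against 8.99% and 12.1%. At L4, twk-8, twk-13, twk-28 and twk-46 were higher and none was lower, against 8.21% and 11.2%. Without L3 replicate 1 and L4 replicate 3, twk-12 and kqt-3 were also called higher in L3 and in L4, and twk-46 was not called. That alternative was chosen after the data had been seen. With all lysates, the limma adjusted p in L3 and L4 was 0.0705 and 0.292 for twk-12, and 0.162 and 0.362 for kqt-3. Without L3 replicate 2, twk-14 was called lower in L3 (-2.31, limma adjusted p = 0.0487). With all lysates it was -1.59 there and not called (limma adjusted p = 0.0809). When the pairing of IP and input by lysate was dropped from the fit, 2 genes were called in L2 and 2 in L3 in place of 4 at each. The share of all features called without the pairing is not given, so this drop is not read as particular to these genes.

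The genes twk-13 and twk-28 were called higher at all 5 stages. The fitted difference of twk-28 was 3.84 ± 0.56 (SE) at Egg, 4.58 ± 0.54 in L1, 3.30 ± 0.63 in L2, 2.54 ± 0.56 in L3 and 3.99 ± 0.63 in L4. That of twk-13 was 1.67 ± 0.30 (SE) at Egg, 2.53 ± 0.30 in L1, 1.44 ± 0.34 in L2, 1.39 ± 0.30 in L3 and 1.53 ± 0.34 in L4. The L2 call of twk-13 was lost without L2 replicate 2 (1.09, limma adjusted p = 0.142). With columns centred on their medians in place of quantile normalization, twk-13 kept its sign and lost 4 of its 5 stage calls. These were Egg (1.26, limma adjusted p = 0.0728), L2 (0.94, 0.268), L3 (1.11, 0.125) and L4 (1.20, 0.155). In both genes the value was largest in L1, where the lysates of twk-13 were also closest together. Without L3 replicate 1, the L3 value of twk-28 was 3.45.

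The fitted difference of twk-12 was 2.24 at Egg, 3.52 in L1, 2.38 in L2, 1.61 in L3 and 1.13 in L4, and it was called at the first 3 of these. The lower L3 and L4 values include L3 replicate 1 and L4 replicate 3, and without both lysates twk-12 was 1.97 ± 0.45 (SE, limma adjusted p = 0.00362) in L3 and 2.55 ± 0.54 (SE, limma adjusted p = 0.00268) in L4. That of kqt-3 was 2.72, 3.44, 2.14, 1.36 and 1.06 in the same order and was called at Egg and L1, with a limma adjusted p of 0.0538 in L2. Without the same 2 lysates kqt-3 was 1.77 ± 0.58 (SE, limma adjusted p = 0.0372) in L3 and 2.21 ± 0.70 (SE, limma adjusted p = 0.0379) in L4. With L4 replicate 3 alone left out, the L4 value was called for twk-12 (limma adjusted p = 0.00819) and not for kqt-3 (limma adjusted p = 0.0679). The Egg call of kqt-3 was lost without Egg replicate 2 (1.85, limma adjusted p = 0.132), that of twk-12 without Egg replicate 5 (1.84, limma adjusted p = 0.0696), and the L2 call of twk-12 was lost without any 1 of the 3 L2 lysates. The Egg difference of twk-42 was 2.81 ± 0.73 (SE), from 3 lysates at 3.58, 1.49 and 3.21, since the input of Egg replicate 4 had no value above 0. In 2 of these 3 lysates the input was not above background, and the call was lost without Egg replicate 1 (2.35) or Egg replicate 5 (2.54).

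The call of twk-46 in L4 (2.20 ± 0.76, SE, limma adjusted p = 0.0470) rests on 1 lysate. Its IP minus input in L4 was 1.09, 4.43 and 0.85, and in L4 replicate 3, the highest, neither the IP nor the input was above background. Without that lysate it was 0.97 (limma adjusted p = 0.504). The call was also lost without L3 replicate 2 (2.13, limma adjusted p = 0.0534) and without several other single lysates. For twk-8 the fitted difference was 0.81, 0.93, 0.61, 0.69 and 0.99 from Egg to L4, and the call in L3 was lost without L3 replicate 2 (limma adjusted p = 0.116), without L3 replicate 3 or without L3 replicate 5, and the call in L4 without L4 replicate 1 (0.70, limma adjusted p = 0.0756). For twk-7 it was -0.78, -1.38, -1.55, -1.51 and -0.79, and the uncalled stages, Egg and L4, each held 1 of the exceptional lysates. The L2 call of twk-7 was lost without L2 replicate 1 (-1.45, limma adjusted p = 0.0515). With columns centred on their medians, twk-8 lost its calls at Egg, L1, L3 and L4, and twk-7 lost its L1 call (limma adjusted p = 0.0525).

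**Figure D3:**
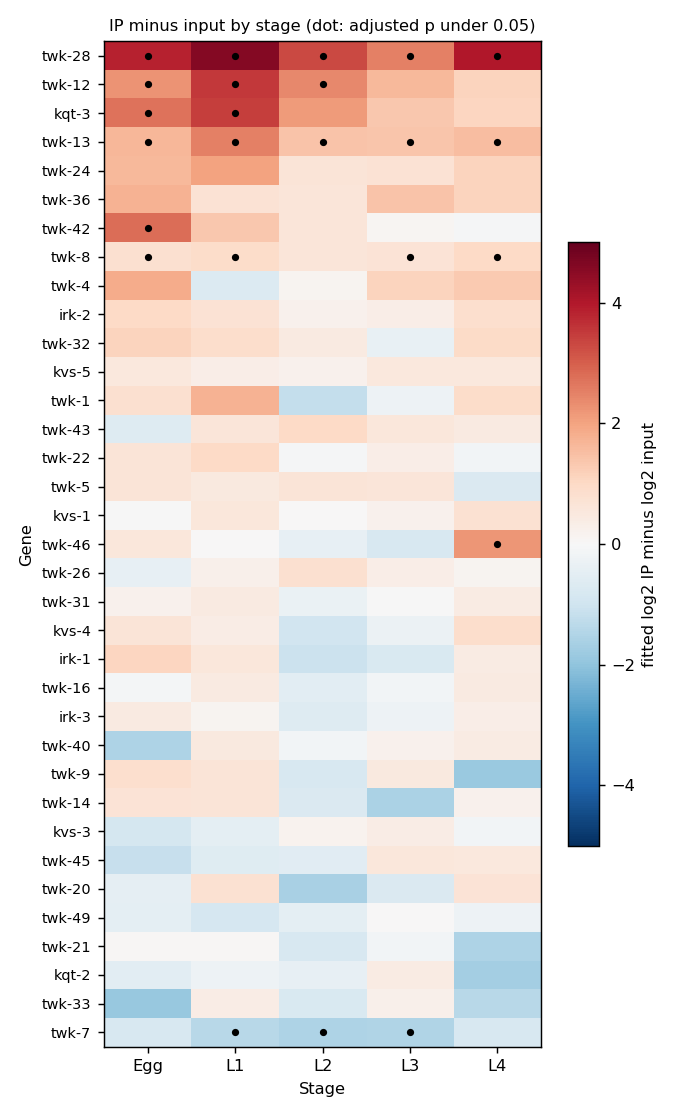
Fitted difference between IP and input (colour, log2, red higher in the IP and blue lower) for the 35 tested genes (rows, ordered by their mean) at each stage (columns); a dot marks a limma adjusted p under 0.05. The rows of twk-28 and twk-13 carry a dot at all 5 stages, and no gene has both a called higher and a called lower stage.

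Calls at one stage and not at another do not show that the stages differ, and the differences between stages were tested directly. None of the 35 genes was called between neighbouring stages, where 2.4% of all features were called for L1 against Egg, 0.089% for L2 against L1, and 0% for L3 against L2 and for L4 against L3 (limma, adjusted p). At an unadjusted p under 0.05 there were 0, 3, 0 and 2 of these genes in the same order. No share of all features is given at the unadjusted cutoff, here or below, so such counts show nothing particular to these genes. None was called in the joint test of any stage difference either, where 2.69% of all features were called and 2 of the genes had an unadjusted p under 0.05. The lowest limma adjusted p in the joint test was 0.261, for irk-1, whose differences were 1.40, 0.99, 0.61 and 1.20 at Egg and -1.72, -1.41 and -0.09 in L2. Egg and L2 are shown because their values were seen to lie apart, and they were not tested against each other. The change of the members' difference from L1 to L2 had a median of -0.75, beside -0.33 over all features, and both depended on the scaling: the 2 medians were -0.11 and 0.21 with the values as deposited, -1.10 and -0.78 with centred columns, and -0.42 and -0.07 with loess within a lysate. With an offset of 0.1 added to the intensities before the logarithm, 2 genes were called for L1 against Egg and 2 in the joint test. The share of all features called with this offset is not given, so these counts are not read as particular to these genes.

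The third comparison asks how the total RNA of these genes changed over development. In whole-animal RNA, fewer cells that express a gene and less RNA per cell cannot be told apart. From Egg to L1, twk-5 and twk-42 rose and none fell, while 11.2% of all features rose and 11.5% fell. In the next 3 steps none of the 35 genes was called (limma, adjusted p). The shares of all features called were 2.02% for L2 against L1, 0% for L3 against L2 and 0.877% for L4 against L3. In each step 2 of the genes had an unadjusted p under 0.05, a cutoff at which no share of all features is given. In the joint test of any stage difference, where 25% of all features were called, twk-5, twk-12 and twk-13 were called, but 0 genes were without Egg replicate 2.

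The input level of twk-5, a gene of the paired-pore family, was -5.95, -5.40, -2.84 and -4.60 at Egg, -2.65, -2.27, -2.11 and -2.01 in L1, -2.76, -2.43 and -2.57 in L2, -4.36, -1.61, -3.10 and -2.80 in L3, and -1.78, -2.82 and -2.16 in L4. All L1 samples were above all Egg samples, and 2 of the 4 Egg samples were not above background. The rise from Egg to L1 was 2.39 ± 0.63 (SE, limma adjusted p = 0.0100), and without Egg replicate 2 it was 1.97 (limma adjusted p = 0.0635). The difference between IP and input of twk-5 was 0.33 ± 0.23 (SE, 18 lysates), which was not called.

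The input level of twk-42 was -6.64, -5.82 and -5.04 in the Egg samples with a value and -3.56, -2.60, -2.97 and -4.16 in L1, so that these stages did not overlap. It was -4.54, -2.26 and -4.29 in L2, -3.11, -4.15, -4.31 and -2.52 in L3, and -5.48, -4.54 and -3.73 in L4. The L4 average of -4.58 lay between those of Egg (-5.83) and L1 (-3.32). The rise from Egg to L1 was 2.49 ± 0.70 (SE, limma adjusted p = 0.0169), and it was lost without Egg replicate 1, Egg replicate 2, L1 replicate 5 or L1 replicate 10, with values from 2.11 to 2.42. Only 1 of the Egg inputs of twk-42 was above background.

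The genes twk-12 and twk-13 were called in the joint test and in no single step, and without Egg replicate 2 the joint test called neither. The input of twk-12 averaged -3.83 ± 0.54 (SD, n = 4) at Egg, -2.64 ± 0.34 in L1 (SD, n = 4), -2.85 ± 0.28 in L2 (SD, n = 3), -3.35 ± 0.59 in L3 (SD, n = 4) and -4.58 ± 0.79 in L4 (SD, n = 3), so its highest level was in L1 and its lowest in L4. The joint test gave a limma adjusted p of 0.0382. The input of twk-13 averaged -0.56 ± 0.34 (SD, n = 4) at Egg, -1.36 ± 0.28 in L1 (SD, n = 4), -1.23 ± 0.61 in L2 (SD, n = 3), -1.88 ± 0.40 in L3 (SD, n = 4) and -2.33 ± 0.49 in L4 (SD, n = 3), with a limma adjusted p of 0.0144. The Egg samples of twk-13 were all above the L3 and L4 samples, and neighbouring stages from L1 on overlapped. Its IP level fell alongside, from 1.16 ± 0.50 (SD, n = 4) at Egg to -0.77 ± 0.39 (SD, n = 3) in L4. In contrast, the input of twk-28 averaged between -4.44 and -3.60 at the 5 stages and was not called in the joint test (limma adjusted p = 0.828).

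**Figure D4:**
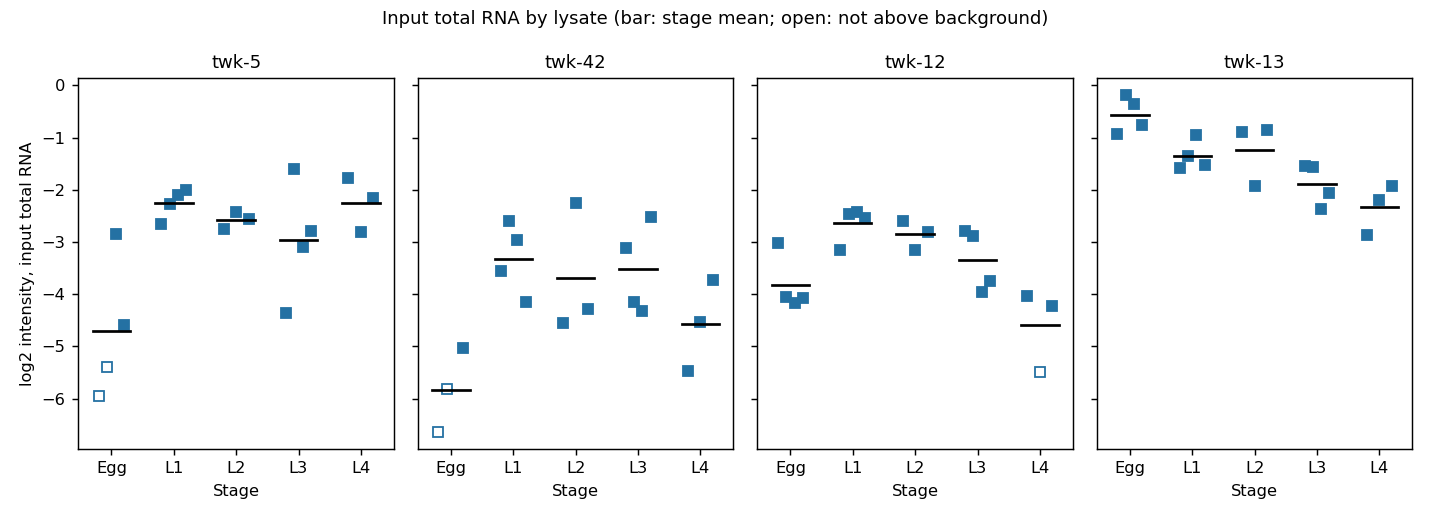
Log2 intensity of twk-5, twk-42, twk-12 and twk-13 in the input total RNA of each lysate (squares, by stage), with the stage mean as a bar; open squares are not above background, and 1 Egg sample of twk-42 has no value. The Egg squares lie below those of L1 for twk-5 and twk-42, while the bar of twk-13 is highest at Egg.

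Other genes of the same pathway were taken from 3 lists. Across all features, 19.2% were called higher and 25.2% lower in the IP over the stages. Of 15 other pore-forming potassium channel genes, 8 were tested, 5 were higher in the IP and 1 was lower over the stages, with a median of 0.84. Those higher were shw-3, a Shaw-type channel (2.05 ± 0.43, SE), sup-9, a paired-pore channel of muscle (1.90 ± 0.27), kcnl-4, a calcium-activated channel (1.52 ± 0.36), shl-1, a Shal-type channel (0.99 ± 0.32), and unc-103, an ERG-type channel (0.57 ± 0.17). The gene egl-2, an EAG-type channel, was lower (-2.05 ± 0.45, SE, limma adjusted p = 0.00102). In sup-9, a member of the same protein family as the twk genes under another name, the IP was above the input in 16 of 18 lysates.

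Of 14 accessory subunits and regulators, 8 were tested, 2 were higher and 1 lower, with a median of 0.60. The shares of all features were 19.2% higher and 25.2% lower. The gene sup-18, which encodes a membrane protein that activates the SUP-9 channel, was higher by 5.04 ± 0.15 (SE) and in 18 of 18 lysates. The gene erg-28, needed for trafficking of the SLO-1 channel, was higher by 3.27 ± 0.31 (SE) in 17 of 18. The dystrobrevin gene dyb-1, which helps to place SLO-1 in muscle, was lower by -1.70 ± 0.11 (SE) in all 18. The remaining partners of SUP-9, unc-93 (-0.12 ± 0.30, SE) and sup-10 (0.87 ± 0.40, SE), were not called. Of 11 calcium and sodium leak channel genes, 5 were tested, none was higher, and unc-36, a calcium channel subunit gene, was lower (-0.43 ± 0.12, SE), with a median of -0.03 that lay between -0.13 and 0.11 when 1 lysate was left out.

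Marker genes of 6 tissues were also compared between Egg and L1 in the total RNA, where 11.2% of all features rose and 11.5% fell. Of 5 tested pan-neuronal markers 2 rose, of 7 body wall muscle markers 2 rose, of 6 pharyngeal muscle markers 4 rose and of 9 intestine markers 7 rose from Egg to L1 in the input, and none of these 4 lists had a member that fell. Of 6 epidermis markers 2 rose and 2 fell, and of 9 germ line markers none rose and 3 fell. The medians of the 6 lists were 1.62, 0.97, 1.35, 2.50, -0.27 and -0.52, beside 0.14 for the 35 potassium channel genes and 0.01 over all features. Leaving out 1 lysate moved the median of the potassium channel genes between 0.06 (without Egg replicate 1) and 0.41 (without Egg replicate 4), of the pan-neuronal markers between 0.96 (without Egg replicate 4) and 1.96, of the body wall muscle markers between 0.44 (without Egg replicate 5) and 1.15, of the epidermis markers between -0.38 and -0.11 (without Egg replicate 2), and of the germ line markers between -1.08 (without Egg replicate 4) and -0.35. Between IP and input over the stages, pan-neuronal markers had 1 higher and 1 lower of 5 (median -0.04, between -0.08 and 0.03 when 1 lysate was left out), body wall muscle markers 3 and 4 of 7 (-0.33), pharyngeal muscle markers 1 and 4 of 6 (-0.74), intestine markers 0 and 6 of 9 (-0.91), epidermis markers 1 and 2 of 6 (-0.53), and germ line markers 4 and 2 of 9 (0.22, between 0.05 and 0.24 when 1 lysate was left out). Across all features, 19.2% were called higher and 25.2% lower between IP and input over the stages. The part of these tissues in the results was not tested.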

How the data were processed

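The authors' deposited values are intensities on a linear scale from spotted 2-colour arrays, 1 dye channel per sample, and per the labels' protocols RNA was amplified once and labelled with Cy3 or Cy5. In the deposited table the columns have means close to 1 and hold values below 0; the scanner and the scaling are not given in the sources used here. Values of 0 or less were set to missing, log2 was taken, and the 36 columns were quantile normalized (limma 3.58.1 in R 4.3.3). Probes of a gene were averaged. Gene names came from GEO's platform annotation.

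Each lysate's IP minus input was fitted with limma on stage and dye orientation, and the 18 inputs likewise (residual degrees of freedom 12 in both). Cy3 labelled the IP of 12 lysates and the input of the other 6. The variance trend followed the mean level of IP and input. The first fit run used limma's default covariate for such values, the mean difference; it called 10 genes higher and 2 lower, and the mean level was chosen after both counts had been seen. IP and input are paired because they come from 1 lysate, and their deviations from the stage means correlated at 0.25 to 0.61, each IP best with its own input. Numbers shared between stages pair nothing. The functions were tested on simulated data.

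The members, gene lists and alternatives were chosen with earlier results of these data known. Named with every lysate's value are the genes called with a difference beyond 1, and those called in total RNA; twk-18, kqt-3, irk-1 and kvs-1 were named in any case, and genes singled out beyond this were chosen after their values were seen. The alternatives were 33: each lysate left out, scaling, offset, brightness filter, brightest probe, dye, variance, title spelling and pairing. Figures were drawn with matplotlib 3.10.9.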

Additional observations from a re-analysis of the deposited data

Results flagged for a closer look

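In groups of 4 lysates, the highest or lowest value of 5 of 43 groups tested lay far from the others by Dixon's ratio, and chance alone flags about 1 group in 20. For twk-28 and kqt-3 this was L3 replicate 1, where IP minus input was -0.72, against 3.20 to 3.50 in the other L3 lysates, and -0.96, against 1.37 to 1.84; in both, the IP of that lysate was not above background. For kvs-5 it was L1 replicate 11, at 1.13 against 0.05 to 0.06. For the input level of twk-12 it was Egg replicate 1, at -3.02 against -4.16 to -4.06, and L1 replicate 2, at -3.15 against -2.53 to -2.43. The part of array quality in these values was not tested.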

How the results depend on the processing

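The 33 alternatives include 18 that leave out 1 lysate, and 3 chosen after seeing the data. The latter left out L3 replicate 1 and L4 replicate 3 together, used a replicate block by title number, or set the variance trend on the mean difference. The counts below are given without the share of all features called under the same alternative. A count that moved is therefore not read as particular to the potassium channel genes. The calls of twk-28, twk-12, kqt-3, twk-13 and twk-7 over the mean of the stages were kept under all 33. Leaving out 1 lysate gave 8 to 10 genes higher and 1 to 2 lower over the stages, 4 to 8 called at Egg, 6 at L1, 2 to 6 at L2, 3 to 5 at L3, 3 to 5 at L4, 0 for every difference in the ratio, 0 to 4 in total RNA from Egg to L1 (0 without Egg replicate 2, 1 without L1 replicate 5 or L1 replicate 10, 4 without L1 replicate 2 or L4 replicate 1), 0 in the later steps and 0 to 5 for any stage in total RNA (0 without Egg replicate 2, 1 without Egg replicate 5, L1 replicate 5, L1 replicate 10 or L2 replicate 3, 5 without L1 replicate 2 or L4 replicate 10). The lower count was 2 without L3 replicate 1 or L4 replicate 3. At L2 the count was 2 without L2 replicate 1 or L2 replicate 2. With the 12 lysates of the title spelling tot, which the labels do not explain, 5 genes were higher over the stages, 2 were called at Egg, 0 at L1 (1 lysate left), 2 at L2, 1 at L3 and 1 at L4, 1 rose in total RNA from Egg to L1, 1 was called from L1 to L2 and 1 for any stage. With the lysates whose IP carried Cy3, 3 were called at L1, 0 at L2 and 1 in total RNA from L3 to L4. The lower count was 2 with the values as deposited, centred columns, an offset of 0.1, no dye term, no variance trend, the trend on the mean difference, or without L3 replicate 1 and L4 replicate 3. The offset gave 7 at L2, 2 for the ratio of L1 against Egg and 2 for any stage, and 6 in total RNA from Egg to L1; values as deposited gave 7 at L3, and centred columns 2 at L4. Loess within a lysate, the pairing and the trend on the mean difference give no value for total RNA.

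Without the lysate pairing, 2 genes were called at L2 and 2 at L3; it moved no other count over 1.5 times. A replicate block by the number in the title gave 3 at Egg, 2 at L1 and 1 in total RNA from Egg to L1; same-numbered inputs of different stages correlated between -0.21 and 0.36 in their deviations, so the numbers are not taken as pairs. The gene irk-3 went from -0.0023 to 0.55 with the Cy3 lysates (limma adjusted p = 0.0168); the cause was not tested. Scaling moved the median of all features from -0.09 to 0.14 with the values as deposited, where the median of the 35 genes was 0.52. The median change of the 35 genes in total RNA from Egg to L1 was -0.02 with the tot lysates and 0.36 with the Cy3 lysates. Of the calls over all features at L2, 38.5% were higher, against 57.7% as deposited, 21.4% centred and 50.4% with loess; the share moved by over 10 points with centred columns at Egg (46.8% to 36.7%), L1 (57.1% to 67.2%), L3 (42.7% to 32.5%) and L4 (42.4% to 30.6%), and with loess at L4 (52.6%).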

Other observations

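Among the genes not tested, kvs-2, twk-3, twk-10, twk-18, twk-23, twk-29, twk-37 and twk-47 were above background in more input than IP samples. Over all spots, 31% to 70.4% were above background in the IP samples and 51.3% to 71.4% in the input samples. The order is therefore not read as particular to these genes. For twk-30 the order was the reverse, with 3 input and 5 IP samples, as it was for twk-2, twk-34, twk-35, twk-39 and twk-44. The gene twk-25 was not above background in any of the 36 samples.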
